A study of Mus musculus with 54 samples.

Results

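Lipoproteins carry triglyceride and cholesterol through the blood, and apolipoproteins are the proteins that hold these particles together and steer them to enzymes and receptors. The gene group described here holds 10 of the 54356 genes in each deposited table: Apoa1, Apoa2, Apoa4, Apoa5, Apob, Apoc1, Apoc2, Apoc3, Apoe and Mttp. They were picked out by gene name, with earlier results of these data known, and all 10 were found in the heart table and in the liver table. The data came from male C57BL/6 mice, 20 weeks old and fed a high-fat diet with 42% of its energy from fat. Each tissue had 3 Mrps12+/+ littermate controls, 3 Mrps12ep/ep mice and 3 Mrps12ha/ha mice. Mrps12 encodes a protein of the small mitochondrial ribosomal subunit, and the germline ep and ha mutations make mitochondrial protein synthesis error-prone and hyper-accurate, respectively. The mutations are present in every tissue, and all groups ate the same diet, so the effect of the diet itself is not measured by these comparisons. Total RNA from whole hearts and whole livers was sequenced in 54 libraries, and each of the 18 columns was taken to be 1 mouse and tissue, the pool of its 3 technical libraries, as the sample labels number them. The methods instead speak of pooling biological replicates before quantification, so the reading of a column as a single mouse, and of n as a number of mice, rests on the labels.

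The liver builds very low-density lipoprotein (VLDL) around one molecule of apolipoprotein B (Apob) per particle, and the microsomal triglyceride transfer protein (Mttp) loads lipid onto it in the endoplasmic reticulum. The smaller apolipoproteins exchange between particles in plasma. Apoc2 activates lipoprotein lipase, Apoc3 and Apoc1 slow the breakdown and uptake of triglyceride-rich particles, Apoa5 promotes their breakdown, and Apoe is a ligand for hepatic receptors. Apoa1 and Apoa2 are the main proteins of high-density lipoprotein, and Apoa4 is found on intestinal and hepatic particles. In the files' GRCm38 annotation the genes fall in a cluster of 4 on chromosome 9 (Apoa1, chr9:46228580-46230466, plus strand, then Apoc3, chr9:46232933-46235636, minus strand, Apoa4, chr9:46240696-46243459, plus strand, and Apoa5, chr9:46268633-46271919, plus strand) and a cluster of 3 on the minus strand of chromosome 7 (Apoc2, chr7:19671579-19677941, Apoc1, chr7:19689481-19692660, and Apoe, chr7:19696109-19699188). Apob (chr12:7977648-8016835, plus strand), Mttp (chr3:138089854-138144968, minus strand) and Apoa2 (chr1:171225054-171226379, plus strand) stand alone. The edited gene, Mrps12 (chr7:28739641-28741820, minus strand), lies on the same chromosome as the Apoe cluster, 9.0 to 9.1 Mb away.

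Sequencing depth, taken from whole reads recovered from the normalised counts, ran from 11202961 to 51484404 reads on genes in the hearts and from 21238036 to 81518584 in the livers. Depth was uneven between genotypes. The Mrps12ha/ha hearts had a median of 17916703, against lowest values of 37099902 in Mrps12+/+ and 33825981 in Mrps12ep/ep hearts. In the livers the lowest values were 61934634 in Mrps12+/+, 23805110 in Mrps12ep/ep and 21238036 in Mrps12ha/ha mice. Mrps12 itself had 1508 to 1914.5 normalised counts in the livers and 1028 to 1397 in the hearts, with overlapping genotypes. The mutations are single amino acid substitutions, so the transcript level is no check of the genotype labels. The tissue labels held: 8 hepatocyte markers summed to 98450 to 139900 RPM (reads scaled to the total of each library) in the livers, and 5 cardiomyocyte markers to 58340 to 90630 in the hearts. Several libraries stood apart from the rest. In the liver of Mrps12+/+ mouse 3, acute phase genes summed to 27660 RPM against 2734 to 4435 in the other livers, and the livers of Mrps12+/+ mice 1 and 2 held skeletal muscle transcripts at 333.7 and 326.7 RPM against at most 4.06 in the others. In the heart of Mrps12ep/ep mouse 2, atrial genes summed to 11350 RPM against 50.2 to 5069 elsewhere, and macrophage genes to 461.5 against 199.8 to 290.0 in the other 8 hearts. One Mrps12ha/ha liver (mouse 3) had cardiomyocyte genes at 124.7 RPM against at most 7.56 in the others. The Mrps12+/+ mouse 3 heart had adipocyte genes at 400.5 RPM against at most 44.95, and the Mrps12ha/ha mouse 3 heart had erythroid genes at 28440 RPM against at most 9377.

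In the liver the 10 genes together took 5.15% ± 0.597 of all reads on genes in the Mrps12+/+ mice, 5.40% ± 0.334 in the Mrps12ep/ep mice and 5.35% ± 0.119 in the Mrps12ha/ha mice (SD, n = 3 each). Apoe alone accounted for 1.91% to 2.66% and ranked 2 of 54356 genes by mean RPM, with Apoa1 at rank 6, Apoa2 at 10, Apoc1 at 30 and Apob at 40. RPM values were divided by transcript length in kilobases (RPKM) to compare genes with each other. On this scale Apoe (15450 ± 1941 RPKM) and Apoa2 (14380 ± 3094) led in the Mrps12+/+ livers and their ranges overlapped. Apoa1 (9689 ± 1415) and Apoc1 (6503 ± 1442) followed, each apart from its neighbours. Apoc3 (2415 ± 638.6), Apoa4 (1317 ± 1177), Apoc2 (581.5 ± 92.07) and Apoa5 (527.3 ± 94.48) formed a run in which each overlapped the next. The long Apob transcript reached only 252.2 ± 15.82 and Mttp 70.17 ± 7.47 on this per-length scale, both clear of their neighbours. The order was the same in the Mrps12ha/ha livers, while in the Mrps12ep/ep livers Apoc1 (9879 ± 606.1) stood before Apoa1 (8546 ± 1609) and Apoc2 before Apoa4, with overlapping ranges in both pairs.

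**Figure D1:**
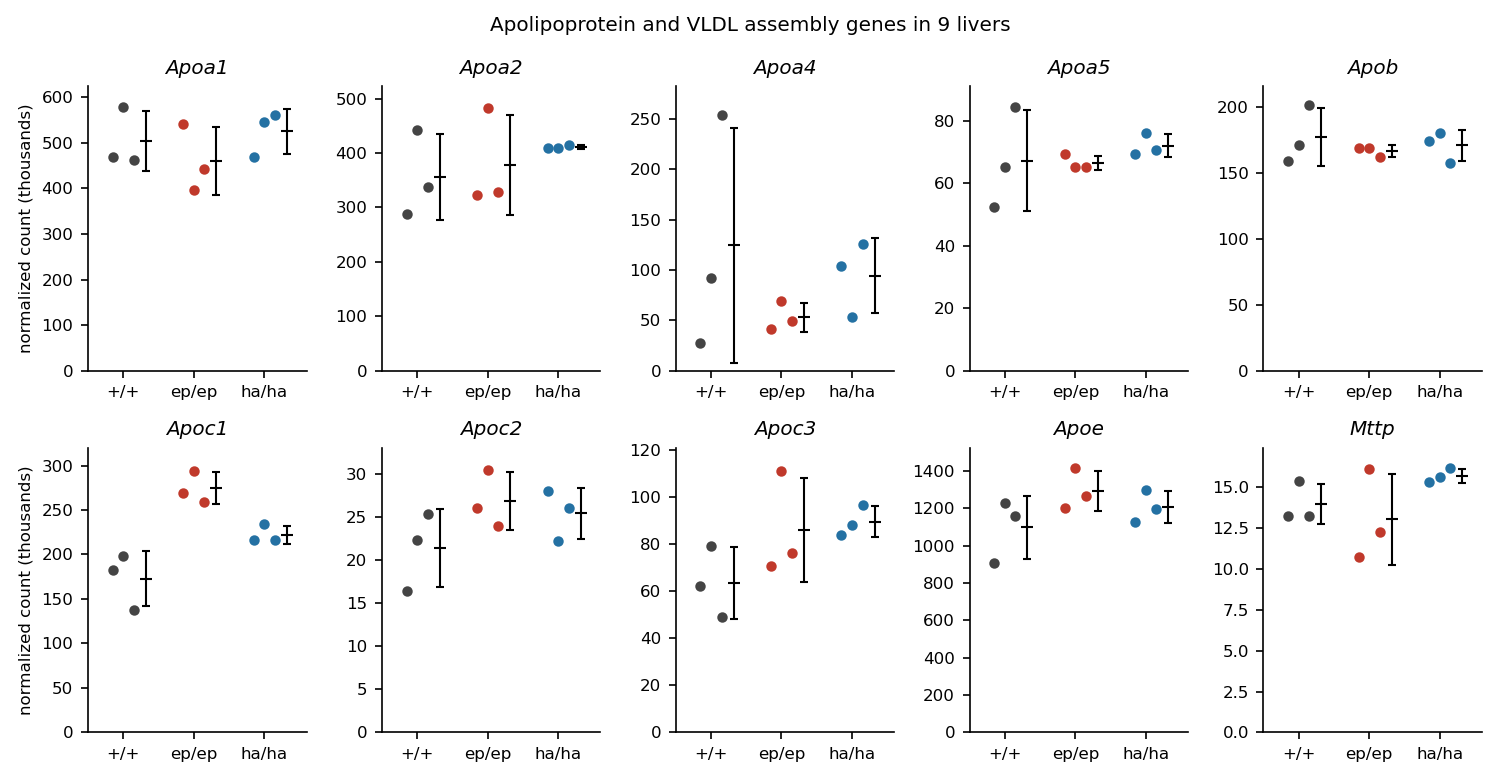
Normalised counts (linear axes from 0) of the 10 genes in the livers of 9 mice, 1 point per mouse, with the mean and SD of each genotype beside the points (n = 3). For Apoc1 all 3 Mrps12ep/ep and all 3 Mrps12ha/ha points lie above the 3 Mrps12+/+ points, and Apoa4 has its widest spread within the Mrps12+/+ group, from 27988 to 254186.

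The genotype comparisons asked whether altered fidelity of mitochondrial protein synthesis under the high-fat diet went with a different hepatic output of these transcripts. No member passed an adjusted p of 0.05 in any of the 3 liver comparisons with limma (lowest adjusted p = 0.3373). Across all 15314 liver genes tested, 0.00653% passed in each comparison, a single gene each time. At an unadjusted p under 0.05 there was 1 member of 10 for Mrps12ep/ep against Mrps12+/+ (9.74% of all genes), 1 for Mrps12ha/ha against Mrps12+/+ (14.1%) and 0 for Mrps12ha/ha against Mrps12ep/ep (8.62%), so these shares were near the background. limma-voom on the recovered reads also called 0 members, with 1, 0 and 0 members at an unadjusted p under 0.05 beside 9.42%, 15.9% and 7.46% of all genes in that fit. The median log2 fold change of the 10 genes was 0.05, 0.16 and 0.10 in the 3 comparisons, beside -0.01, -0.02 and -0.002 over all genes tested, and the first was -0.02 in limma-voom, where the median of all genes lay as low as -0.102 (Mrps12ha/ha against Mrps12+/+). Both mutant genotypes were set against the same 3 Mrps12+/+ mice, so the first 2 comparisons are not independent of each other. A bulk measurement of this kind cannot tell fewer cells of a type from less RNA per cell.

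**Figure D2:**
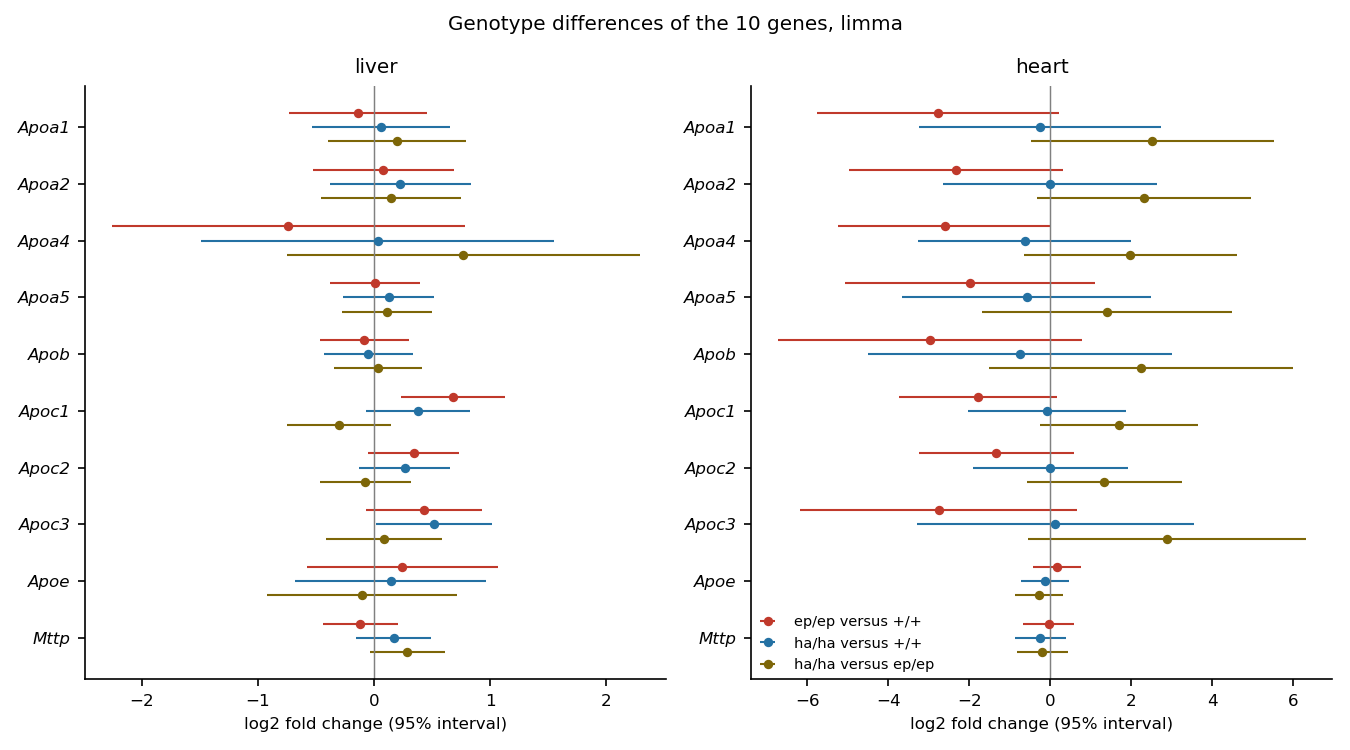
Log2 fold changes of the 10 genes from limma on log2(normalised count + 1), with 95% confidence intervals, for the 3 genotype comparisons in the liver (left) and the heart (right, wider axis). In the liver only the intervals of Apoc1 (0.23 to 1.13, Mrps12ep/ep against Mrps12+/+) and Apoc3 (0.02 to 1.02, Mrps12ha/ha against Mrps12+/+) lie clear of 0, neither past the adjusted threshold, and the heart intervals of 8 genes are several log2 units wide.

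Among the C apolipoproteins, Apoc1, an inhibitor of receptor uptake of remnant particles, showed the clearest separation. Its normalised counts were 182593, 198053 and 137856 in the Mrps12+/+ livers, 269014, 294323 and 259428 in the Mrps12ep/ep livers and 216526, 233828 and 216481.5 in the Mrps12ha/ha livers. The 3 genotypes did not overlap: every Mrps12ep/ep liver was above every Mrps12ha/ha liver, and these were above every Mrps12+/+ liver. As a ratio to albumin (Alb) in the same liver, however, the genotypes overlapped. The ratios were 0.0469 to 0.0587 in Mrps12+/+, 0.0579 to 0.071 in Mrps12ep/ep and 0.048 to 0.0628 in Mrps12ha/ha livers. The log2 fold change was 0.68 (SE 0.20, 95% confidence interval 0.23 to 1.13, unadjusted p = 0.007422 and adjusted p = 0.4196 from limma) for Mrps12ep/ep against Mrps12+/+, 0.38 (SE 0.20, adjusted p = 0.4287) for Mrps12ha/ha against Mrps12+/+ and -0.30 (SE 0.20, adjusted p = 0.7356) for Mrps12ha/ha against Mrps12ep/ep. In an exact two-sided permutation test each of these differences had p = 0.1, the smallest that 3 mice against 3 can give. Of all genes tested, 6.49% lay higher in every mouse in the first comparison, 10.0% in the second, and 9.01% lay lower in every mouse in the third. The Mrps12+/+ liver with the high acute phase level, mouse 3, had the lowest Apoc1. Without it the log2 fold changes were 0.53 (adjusted p = 0.4542) for Mrps12ep/ep and 0.22 (adjusted p = 0.6592) for Mrps12ha/ha, and no other single mouse left out took the Mrps12ep/ep value below 0.63.

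Apoc3, encoded between Apoa1 and Apoa4, is an inhibitor of triglyceride clearance. It had 62252, 79327 and 49011 normalised counts in the Mrps12+/+ livers, 70568.5, 111096 and 76282 in the Mrps12ep/ep livers and 83853, 88196 and 96650.4 in the Mrps12ha/ha livers. The Mrps12ha/ha livers were all above the Mrps12+/+ livers, whereas the Mrps12ep/ep livers overlapped both groups and held the highest value, in mouse 2. For Mrps12ha/ha against Mrps12+/+ the log2 fold change was 0.52 (SE 0.22, 95% confidence interval 0.02 to 1.02, unadjusted p = 0.04256, adjusted p = 0.3373 from limma). In RPKM the separation was thin, with the lowest Mrps12ha/ha liver at 3014 and the highest Mrps12+/+ liver at 3011. As a ratio to Alb the 2 groups overlapped, at 0.019 to 0.0237 in Mrps12ha/ha and 0.016 to 0.0235 in Mrps12+/+ livers. Mrps12+/+ mouse 3 was again the lowest liver, and the log2 fold change was 0.35 (adjusted p = 0.5665) without it. For Mrps12ep/ep against Mrps12+/+ it was 0.435 (SE 0.22, adjusted p = 0.5495), and 0.26 without that mouse.

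Apoc2, the cofactor of lipoprotein lipase, had 16471, 22362.5 and 25392 normalised counts in the Mrps12+/+ livers, 26045, 30521 and 23952 in the Mrps12ep/ep livers and 28058, 22236 and 26117 in the Mrps12ha/ha livers. The lowest value was Mrps12+/+ mouse 1, and the remaining 8 livers were intermixed. The log2 fold changes were 0.34 (SE 0.17, adjusted p = 0.5493 from limma) for Mrps12ep/ep and 0.27 (SE 0.17, adjusted p = 0.5224) for Mrps12ha/ha. Exons of the neighbouring Apoc4 lie within 250 bases upstream of Apoc2, so reads from transcripts that run between these genes may be divided uncertainly by the authors' transcript quantification.

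Apoe had 904422, 1228549 and 1158783 normalised counts in the Mrps12+/+ livers, 1201709.6, 1413189 and 1263942 in the Mrps12ep/ep livers and 1124422, 1295131 and 1193651 in the Mrps12ha/ha livers. Mrps12+/+ mouse 1 was lowest and Mrps12ep/ep mouse 2 highest, and the groups overlapped. The log2 fold change against Mrps12+/+ was 0.25 (SE 0.36, adjusted p = 0.8480) for Mrps12ep/ep and 0.14 (SE 0.36, adjusted p = 0.8945 from limma) for Mrps12ha/ha, the latter -0.12 with quantile normalisation. Its cluster neighbour Apoc1 did not keep a fixed proportion to it. The ratio of Apoc1 to Apoe normalised counts was 0.202, 0.161 and 0.119 in the Mrps12+/+ livers, 0.224, 0.208 and 0.205 in the Mrps12ep/ep livers and 0.193, 0.181 and 0.181 in the Mrps12ha/ha livers. The Mrps12ep/ep ratios lay above all the others, and the Mrps12ha/ha ratios fell inside the Mrps12+/+ range.

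Apob and Mttp, the pair that starts VLDL assembly, had narrow ranges. Apob had 159325, 171212 and 201571 normalised counts in the Mrps12+/+ livers, 169196, 169286 and 161917 in the Mrps12ep/ep livers and 174756.5, 180468 and 157797 in the Mrps12ha/ha livers. Its highest liver was 1.28 times its lowest, the narrowest range of the 10 genes. The 95% confidence intervals of its log2 fold change against Mrps12+/+ were -0.46 to 0.30 for Mrps12ep/ep and -0.43 to 0.33 for Mrps12ha/ha. These intervals give the changes compatible with the values of 3 mice per genotype, not a limit of detection. Mttp had 13255, 15379 and 13264 normalised counts in the Mrps12+/+ livers, 10767, 16119.7 and 12249 in the Mrps12ep/ep livers and 15363, 15612 and 16167 in the Mrps12ha/ha livers. The 3 Mrps12ha/ha livers sat close together near the top of the other groups' ranges, and Mrps12ep/ep mouse 1 was lowest. The log2 fold change of Mttp for Mrps12ha/ha against Mrps12ep/ep was 0.29 (SE 0.14, adjusted p = 0.6345 from limma), with an interval of -0.03 to 0.61. The Mttp to Apob ratio of normalised counts averaged 0.0796 ± 0.0124 in Mrps12+/+, 0.0782 ± 0.0159 in Mrps12ep/ep and 0.0923 ± 0.00883 in Mrps12ha/ha livers (SD, n = 3 each), with overlapping values.

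The HDL proteins overlapped between genotypes as well. Apoa1 had 468879.9, 579167 and 462494 normalised counts in the Mrps12+/+ livers, 541959.5, 395584 and 443081 in the Mrps12ep/ep livers and 468515, 545039.7 and 561463.5 in the Mrps12ha/ha livers. Its log2 fold changes ran from -0.13 (Mrps12ep/ep against Mrps12+/+) to 0.20 (Mrps12ha/ha against Mrps12ep/ep), each with an SE of 0.26. Apoa2 had 288697, 442046 and 337544 normalised counts in the Mrps12+/+ livers, 322495, 483096 and 327686 in the Mrps12ep/ep livers and 408824, 409104 and 414912 in the Mrps12ha/ha livers. The Mrps12ha/ha livers agreed within 1.01-fold for Apoa2, against 1.53-fold in the Mrps12+/+ livers and a similar span in the Mrps12ep/ep livers, and the log2 fold changes were 0.08 and 0.23 against Mrps12+/+ (SE 0.27, adjusted p = 0.9424 and 0.7357 from limma).

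Apoa5, which promotes triglyceride breakdown, had 52326, 65113 and 84315 normalised counts in the Mrps12+/+ livers, 69245, 65068 and 65338 in the Mrps12ep/ep livers and 69487.5, 76148 and 70509 in the Mrps12ha/ha livers. The Mrps12+/+ livers held both the lowest and the highest value. Every Mrps12ha/ha liver was above every Mrps12ep/ep liver (8.82% of all genes lay this way), by a log2 fold change of 0.11 (SE 0.17, adjusted p = 0.9029 from limma), but on the RPKM scale the groups overlapped, with 533.6 to 546.6 in Mrps12ha/ha and 487.6 to 543.3 in Mrps12ep/ep livers.

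Apoa4 was the most variable of the genes in the liver. It had 27988, 91829 and 254186 normalised counts in the Mrps12+/+ livers, 41484, 69068 and 49214 in the Mrps12ep/ep livers and 104131, 53259 and 126018 in the Mrps12ha/ha livers. The whole 9.08-fold range lay within the Mrps12+/+ group, between mouse 1 and mouse 3, and both mutant groups fell inside it. The log2 fold changes were -0.74 for Mrps12ep/ep and 0.03 for Mrps12ha/ha against Mrps12+/+, each with an SE of 0.675 and with adjusted p-values of 0.7309 and 0.9870 from limma. Without Mrps12+/+ mouse 3 they were 0.04 and 0.81, so that 1 mouse set the sign of the first. Mouse 3 was also the liver with the acute phase sum of 27660 RPM, and the part of that state in its Apoa4 level was not tested.

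The 5 genes whose centred log2 profile over the 9 livers was nearest to that of Apoa4 were Inhbe, Cerkl, Nceh1, Gpat3 and Vnn1. Their root mean square differences from Apoa4 were 0.32, 0.33, 0.34, 0.375 and 0.39 log2 units, against 0.90 for a flat profile. Inhbe encodes a hepatic activin subunit, and its normalised counts were 2561, 7806 and 14722 in the Mrps12+/+ livers, 2383, 4131 and 3134 in the Mrps12ep/ep livers and 7709, 6008 and 8942 in the Mrps12ha/ha livers. Inhbe was lowest in Mrps12ep/ep mouse 1 and highest in Mrps12+/+ mouse 3. Vnn1, the pantetheinase vanin, ran from 2224 to 15294 and Gpat3, an enzyme of triglyceride synthesis, from 242.2 to 1457. Nceh1, a cholesteryl ester hydrolase, ran from 523.7 to 3802, and Cerkl, a ceramide kinase-like protein, from 46.3 to 356.3, all with their highest value in the same Mrps12+/+ mouse 3. None of the other 9 members came close: by the same measure Apoa5 ranked 1469 among the tested genes, and Apoc3 and Apoa1, which lie in the same cluster as Apoa4, ranked 9856 and 6162.

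**Figure D3:**
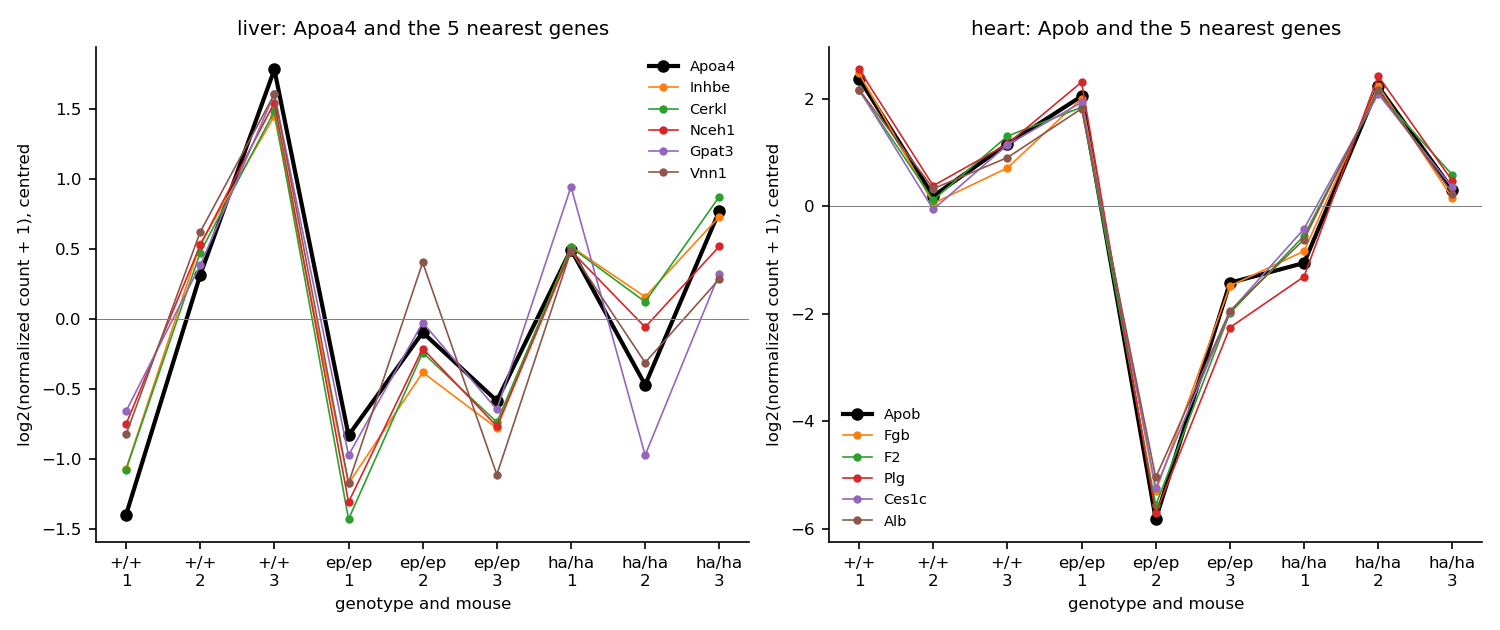
Log2(normalised count + 1), centred on each gene's mean over 9 mice, for Apoa4 and its 5 nearest genes in the liver (left) and for Apob and its 5 nearest genes in the heart (right), by mouse. The liver profiles peak in Mrps12+/+ mouse 3, and the heart profiles share a minimum in Mrps12ep/ep mouse 2. Lines join mice only to show the shared shape.

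Of the wider lipoprotein pathway, no gene passed an adjusted p of 0.05 in any comparison with limma (the counts at an unadjusted p under 0.05 follow, list by list, for the liver, and are to be read against the 9.74%, 14.1% and 8.62% of all genes given above). The lists hold no members. Of 16 other apolipoproteins tested, 0 for Mrps12ep/ep and 2 for Mrps12ha/ha were higher at an unadjusted p under 0.05 against Mrps12+/+, none lower. Apom, an HDL apolipoprotein, and Apoc4 were these 2, named after their values were seen, with log2 fold changes of 0.525 (adjusted p = 0.1341) and 0.43 (adjusted p = 0.3131). Apod had at most 46.9 normalised counts in any liver, with log2 fold changes of -2.74 and -0.66 (SE 1.445). Apol9a and Apol9b are near-identical copies whose reads the quantification may divide uncertainly, and their largest log2 fold changes were -0.82 (Apol9a, Mrps12ha/ha against Mrps12ep/ep, adjusted p = 0.5297) and 0.55 (Apol9b, Mrps12ep/ep against Mrps12+/+, adjusted p = 0.5904).

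Of 27 genes of VLDL assembly and export, 4 were higher and 0 lower at an unadjusted p under 0.05 in the Mrps12ep/ep livers, and 5 higher and 7 lower in the Mrps12ha/ha livers, with list medians of -0.07 and 0.11 on the log2 scale. Hspa5, the main chaperone of the endoplasmic reticulum, had 32980 ± 7759 normalised counts in Mrps12ha/ha livers (SD, n = 3). The Mrps12+/+ livers had 56250 ± 12610 and the Mrps12ep/ep livers 55230 ± 4155. The log2 fold changes were -0.77 in each comparison (SE 0.20, adjusted p = 0.1682 and 0.4171 from limma). Against Mrps12ep/ep, Hspa5 was lower in every mouse, as were 9.01% of all genes tested. Aadac, an esterase linked to mobilising stored triglyceride, had 15470 ± 3704 in Mrps12+/+ and 21970 ± 964.5 in Mrps12ep/ep livers. Its log2 fold change was 0.54 (SE 0.18, adjusted p = 0.4564), higher in every mouse, as were 6.49% of all genes tested. Pnpla3, a lipid droplet protein, was at 9.8 to 311.9 normalised counts over the 9 livers and at 46.4 to 311.9 within the Mrps12ha/ha group, with a log2 fold change of 2.10 (SE 0.87, adjusted p = 0.3252) against Mrps12+/+.

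Of 10 lipases and their regulators, 2 were higher and 1 lower in the Mrps12ep/ep livers at an unadjusted p under 0.05, and 2 higher and 3 lower in the Mrps12ha/ha livers. Angptl8, a feeding-induced inhibitor of lipoprotein lipase, had 985.8, 812.7 and 496.5 normalised counts in the Mrps12+/+ livers, 1412, 1639.9 and 1869 in the Mrps12ep/ep livers and 1457, 1999 and 3203 in the Mrps12ha/ha livers. All 6 mutant livers were above the 3 Mrps12+/+ livers, by log2 fold changes of 1.15 (SE 0.31, adjusted p = 0.3887) and 1.52 (SE 0.31, adjusted p = 0.1168 from limma). Of all genes tested, 6.49% and 10.0% were higher in every mouse in these comparisons. Pltp, which transfers phospholipid between particles, had 7065 ± 1852 in Mrps12+/+ and 2877 ± 257.4 in Mrps12ep/ep livers, a log2 fold change of -1.27 (SE 0.31, adjusted p = 0.3478). Lpl, lipoprotein lipase itself, had a log2 fold change of -1.26 (SE 0.46, adjusted p = 0.2828) for Mrps12ha/ha against Mrps12+/+, in overlapping groups, and its 2 highest livers, at 2693 and 2902, were the Mrps12+/+ mice with skeletal muscle transcripts. The part of those transcripts in the Lpl difference was not tested. Lipg, endothelial lipase, had -0.55 (SE 0.34, adjusted p = 0.7074) for Mrps12ha/ha against Mrps12ep/ep.

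Of 13 receptor and uptake genes tested of 14, 2 were higher and 2 lower at an unadjusted p under 0.05 in the Mrps12ep/ep livers, and 1 each way in the Mrps12ha/ha livers. Cd36, a fatty acid transporter, had log2 fold changes of -0.63 for Mrps12ep/ep and -0.76 for Mrps12ha/ha against Mrps12+/+ (SE 0.41, adjusted p = 0.6337 and 0.4394 from limma), with overlapping groups. Sdc1, a heparan sulphate receptor for remnants, had -0.56 (SE 0.17, adjusted p = 0.4601) for Mrps12ha/ha against Mrps12ep/ep, and Abca1, the lipid exporter that builds HDL, -0.30 (SE 0.15, adjusted p = 0.6452).

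Most of the transcription factors known to act on apolipoprotein genes had more transcript in the mutant livers, without passing the test one by one. Of 25 tested, 19 had a positive and 6 a negative log2 fold change in the Mrps12ep/ep livers (6 and 2 at an unadjusted p under 0.05, median 0.15) and 20 and 5 in the Mrps12ha/ha livers (7 and 0, median 0.17), beside medians of -0.01 and -0.02 over all genes, of which 48.9% and 47.5% had a positive value. Under quantile normalisation and limma-voom these medians lay between 0.09 and 0.21. Their summed level was 2544 to 2714 RPM in the Mrps12+/+ livers, 2918 to 3165 in the Mrps12ep/ep livers and 2938 to 3169 in the Mrps12ha/ha livers, so both mutant groups lay above the controls. Cell type markers differed in the same comparisons: the median log2 fold change for Mrps12ep/ep and Mrps12ha/ha was 0.36 and 0.25 for hepatocyte genes (7 and 5 of 8 higher), -0.32 in both for stellate cell and fibroblast genes (6 of 6 lower in both), and -2.31 and -2.94 for acute phase genes (6 of 6 lower in both). Adipocyte genes (3 of 3) were also lower in both, with medians of -4.285 and -4.35. Skeletal muscle genes (5 of 5) were lower too, with medians of -5.34 and -5.545. Endothelial genes (4 of 4) were higher in both, with medians of 0.44 and 0.47. Of 9 Kupffer cell and macrophage genes 8 and 7 were higher, with medians of 0.33 and 0.09. The adipocyte sums were at most 8.64 RPM in any liver and at most 0.093 in the mutant livers. The skeletal muscle sum of Mrps12+/+ mouse 3, 0.731 RPM, lay within the 0.546 to 4.06 of the mutant livers. The summed hepatocyte markers overlapped, at 98450 to 128400 RPM in Mrps12+/+, 123500 to 139900 in Mrps12ep/ep and 111000 to 127800 in Mrps12ha/ha livers, and the part of these markers in the values of the transcription factors was not tested. Foxa2, a hepatocyte pioneer factor, had 814.4, 1098 and 929.4 normalised counts in Mrps12+/+, 1243, 1153.5 and 1616 in Mrps12ep/ep and 1761, 2749 and 2063 in Mrps12ha/ha livers, with a log2 fold change of 1.195 (SE 0.19, adjusted p = 0.07218 from limma) for Mrps12ha/ha against Mrps12+/+. Ppargc1b, a coactivator of lipid and mitochondrial genes, was at 24.5 to 150.4 in Mrps12+/+ livers, 151.3 to 443.9 in Mrps12ep/ep and 321.3 to 556.9 in Mrps12ha/ha livers, with log2 fold changes of 1.72 (SE 0.63, adjusted p = 0.4590) and 2.455 (SE 0.63, adjusted p = 0.1583). Nr0b2, the bile acid-responsive repressor SHP, was at 3000.1 to 5589 normalised counts in the Mrps12ep/ep livers against 812.8 to 2301 in the other 6 (log2 fold changes of 1.235 for Mrps12ep/ep against Mrps12+/+ and -1.05 for Mrps12ha/ha against Mrps12ep/ep, adjusted p = 0.4225 and 0.5093 from limma). Esrrg, an orphan nuclear receptor, was at 78.4 to 104.3 in Mrps12ep/ep and 166.6 to 196.5 in Mrps12ha/ha livers, a log2 fold change of 1.07 (SE 0.29, adjusted p = 0.4171). Between Mrps12ha/ha and Mrps12ep/ep livers, the genes higher and lower at an unadjusted p under 0.05 were 4 and 4 of these factors, 3 and 3 of the VLDL assembly genes, 1 and 1 of the other apolipoproteins, 0 and 1 of the receptors and 0 and 0 of the lipases. Hnf4a, the central activator of this gene family in hepatocytes, was chosen after its values were seen and lay at 31459 to 41158 normalised counts in all 9 livers.

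In the heart the same 10 genes made up between 0.0363% and 0.0860% of reads, most of it Apoe. Apoe had 293.5 ± 30.43 RPKM in the Mrps12+/+ hearts, 7.2 times the next gene, Apoa2 (40.75 ± 29.42). Below it came Apoc1 (25.39 ± 10.42), Apoa1 (24.27 ± 17.60), Apoc3 (6.186 ± 3.669), Mttp (2.947 ± 0.8123), Apoa4 (2.068 ± 1.990), Apoc2 (1.452 ± 0.9866), Apoa5 (1.189 ± 0.9585) and Apob (0.7769 ± 0.5615), and each of these overlapped the next in the order. Set against the mean of the 9 livers in RPM, the heart means were 0.129% (Apoa4) to 0.259% (Apoc1) for 8 of the genes, beside 0.170% for albumin (Alb) and 0.151% to 0.514% over all 8 hepatocyte markers. Apoe stood at 1.87% and Mttp at 3.98% of liver.

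**Figure D4:**
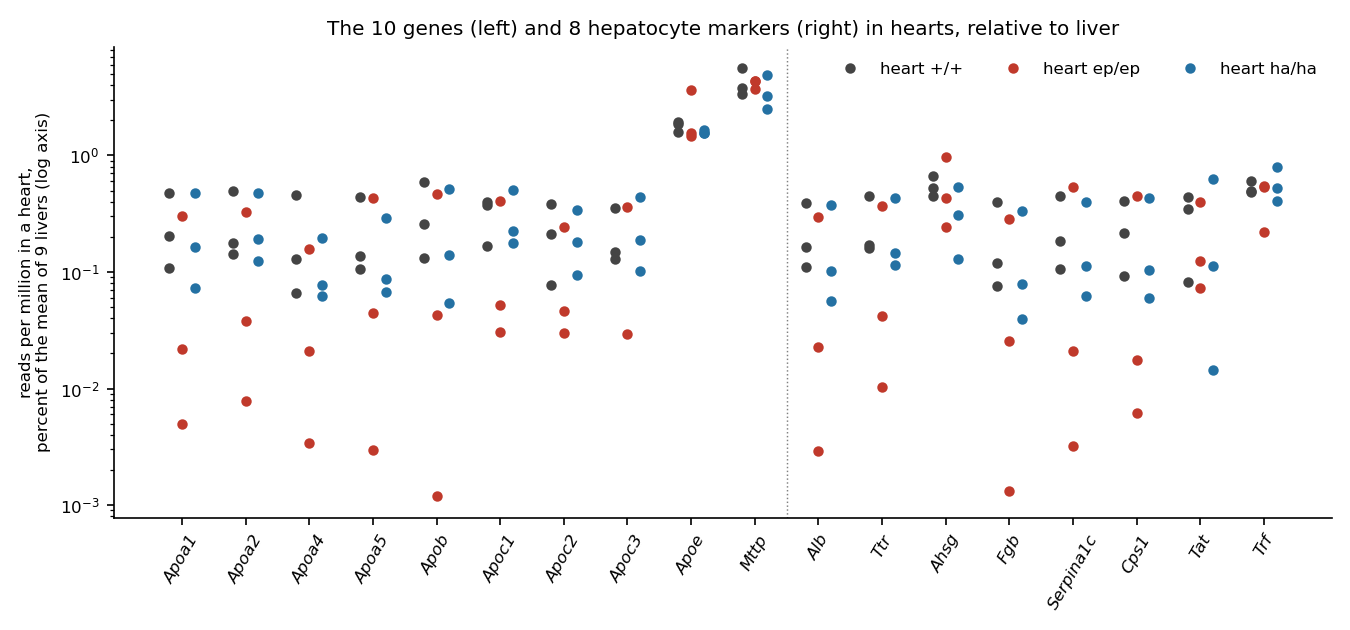
RPM in each heart as a percentage of the mean of 9 livers (log axis), for the 10 genes (left of the dotted line) and 8 hepatocyte markers (right), 1 point per heart coloured by genotype. A heart at 0 reads (Apoc3 in Mrps12ep/ep mouse 2) is not drawn. Apoe and Mttp sit above 1% in every heart, and the means of the other 8 genes (0.129% to 0.259%) fall beside those of the hepatocyte markers (0.151% to 0.514%).

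All 10 genes had a wider range among the hearts than among the livers, with 2.25-fold for Apoe against 1.56-fold in the livers and far wider ranges for the 8 genes other than Apoe and Mttp. Apoa1 had 1502, 333.1 and 630.8 normalised counts in the Mrps12+/+ hearts, 976.7, 13.9 and 67.2 in the Mrps12ep/ep hearts and 231.9, 1540.2 and 522.1 in the Mrps12ha/ha hearts, a 111-fold range against 1.46-fold in the livers. Apob had 645, 141 and 276.7, then 514.1, 1.2 and 45.4, then 58.9, 582.9 and 153.5 normalised counts in the same order of genotypes, and the value in Mrps12ep/ep mouse 2 rests on 2 reads. Apoc3 had 180.8, 64 and 74.2, then 186.2, 0 and 14.5, then 51.5, 226.5 and 96.1, and the 0 in that mouse, with 50542087 reads on genes, allows up to 0.0594 RPM by counting error alone. Apoc1 had 571.8, 229.3 and 520.1, then 585.5, 65.5 and 42.7, then 250.3, 733.9 and 318.1 normalised counts, and here Mrps12ep/ep mouse 3 was lowest. Apoa2 ran from 16.8 to 1212, Apoa4 from 1.7 to 260.1, Apoa5 from 1.2 to 191.2 and Apoc2 from 4.5 to 59.4. In each genotype the same heart was highest for Apoa1, Apob, Apoc3 and Apoc1, namely Mrps12+/+ mouse 1, Mrps12ep/ep mouse 1 and Mrps12ha/ha mouse 2. Alb was highest in the same hearts, with 9895, 2754 and 4115.5 normalised counts in Mrps12+/+, 7737, 65.5 and 568.5 in Mrps12ep/ep and 1428, 9879 and 2589 in Mrps12ha/ha hearts. The hepatocyte markers Ttr, Fgb, Serpina1c, Cps1, Tat and Trf were also highest in these hearts within each genotype, but Ahsg was not. In RPM, Ahsg was highest in Mrps12ep/ep mouse 2, at 0.969% of the liver mean, where Alb was lowest, at 0.0029%. Trf was at 0.534% in that heart, within its range of 0.22% to 0.802%.

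The 8 hepatocyte markers, all detected in all 9 hearts, summed to 211.2 to 513.6 RPM in Mrps12+/+, 69.4 to 435.1 in Mrps12ep/ep and 116.0 to 532.4 in Mrps12ha/ha hearts. The lowest sum was in Mrps12ep/ep mouse 3, and that of Mrps12ep/ep mouse 2 was 141.8 RPM. The part of these markers in the heart values of the apolipoprotein genes was not tested. For 8 of the genes the median ratio of normalised counts to Alb in the hearts was 1.13 (Apoa5) to 1.45 (Apob) times the median ratio in the livers. Of the 9 hearts, 9 lay inside the liver range of this ratio for Apoa4, a wide range of 0.00718 to 0.0879 whose top was Mrps12+/+ mouse 3. For Apoa1, Apoa5 and Apob 7 each lay inside, for Apoc3 6 (2 above, 1 below), for Apoa2 5 (4 above) and for Apoc2 4 (4 above, 1 below). For Apoc1 only 1 heart lay inside the liver range, with the other 8 above it. For Apoe and Mttp every heart lay above the liver range, and the median ratios were 17.2 and 30.2 times those of the liver. In the Mrps12ep/ep mouse 2 heart, where Alb was lowest, Apoc1 and Alb had the same normalised count, 65.5, whereas the ratio of Apoc1 to Alb was at most 0.175 in the other hearts.

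Apob had the widest range among hearts, and the 5 genes nearest to its profile were Fgb (fibrinogen beta chain), F2 (prothrombin), Plg (plasminogen), Ces1c (a carboxylesterase) and Alb, all plasma proteins made by hepatocytes, at root mean square differences of 0.25 to 0.37 log2 units against 2.43 for a flat profile. Apoc3 ranked 12 by this measure, Apoa1 23, Apoa5 27, Apoa2 35, Apoa4 69, Apoc1 150, Apoc2 180, Mttp 802 and Apoe 13965 of the 16057 genes tested. Hnf4a, which activates these genes, was at 1.2 to 118.9 normalised counts in the hearts and was highest in the same Mrps12+/+, Mrps12ep/ep and Mrps12ha/ha mice.

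A pair of upstream windows are shown because Apob had the widest range among the hearts, with hepatocyte genes nearest to its profile, and Apoe ranked last of the members by likeness to it. Bases are lower case with matches to the motifs in capitals, read 5′ to 3′ on the gene's own strand from RefSeq promoter sequences of GRCm38.p6, and no UTR is included.
Apob, chr12:7977427-7977647: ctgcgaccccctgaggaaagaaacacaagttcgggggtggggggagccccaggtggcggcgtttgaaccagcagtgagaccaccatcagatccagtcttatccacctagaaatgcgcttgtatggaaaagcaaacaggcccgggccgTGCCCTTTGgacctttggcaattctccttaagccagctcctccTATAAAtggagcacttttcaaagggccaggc
Apoe, chr7:19699189-19699438: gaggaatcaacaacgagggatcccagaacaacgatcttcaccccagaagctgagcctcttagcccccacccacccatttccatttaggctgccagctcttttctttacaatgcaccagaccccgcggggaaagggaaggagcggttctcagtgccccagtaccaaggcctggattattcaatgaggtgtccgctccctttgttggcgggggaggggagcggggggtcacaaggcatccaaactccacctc
Motifs were searched on both strands in the 250 bases before the start. They were TATAAA (the core sequence of a TATA box), CAAAGNNCA (part of the element bound by HNF4A and related receptors) and GTTAAT (part of the HNF1 element). In Apob the capitals mark a TATAAA and a CAAAGNNCA on the opposite strand, and the Apoe window holds none of the 3 motifs. The window of Apoa1, which ranked 23 by likeness to Apob in the hearts, also holds none of them. Of the 8 members with a window, 3 held TATAAA (Apoa2, Apoa5 and Apob), 2 held CAAAGNNCA (Apoa4 and Apob) and 1 held GTTAAT (Apoc2), beside 12.4%, 5.49% and 6.43% of all 32851 windows. The TATAAA matches lay at -212 (Apoa2), -56 (Apoa5) and -60 (Apob) from the start site of the window. The Mttp window held no motif, but its start site lies 1550 bases from the annotated gene start, and it overlaps exons of Mttp and Trmt10a. The start site of the Apoa4 window lies 148 bases from the annotated one, and the window overlaps exons of Apoa4 and Gm47528. Apoc1 and Apoc3 had no entry.

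Apoe and Mttp had the narrowest ranges of the 10 genes in the heart. Apoe, which macrophages also make, had 12046, 14323 and 13882 normalised counts in the Mrps12+/+ hearts, 12165, 24805 and 11033 in the Mrps12ep/ep hearts and 11887.5, 12295 and 12536 in the Mrps12ha/ha hearts. Mrps12ep/ep mouse 2 alone was high, and the other 8 hearts lay within 11033 to 14323. The same heart had the highest sums of macrophage markers (461.5 RPM, 8 of 9 detected, against 199.8 to 290.0), fibroblast markers (2267 RPM against 1056 to 1505), mesothelial markers (76.75 RPM against 9.24 to 45.09) and atrial genes. Within the macrophage list Vsig4 was at 424.5 normalised counts against 22.8 to 61.6 in the other hearts, whereas Clec4f, at 15.7, was lowest in this heart and lower in every Mrps12ep/ep heart than in every other heart. The part of these markers in its Apoe level was not tested. Mttp, which cardiomyocytes are known to express at a low level, had 506.3, 297.6 and 337.7 normalised counts in the Mrps12+/+ hearts, 400.2, 297.5 and 389.6 in the Mrps12ep/ep hearts and 228.3, 456 and 295.3 in the Mrps12ha/ha hearts, a 2.22-fold range. Mrps12ep/ep mouse 2, lowest for Alb, was not low for Mttp, at 297.5.

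**Figure D5:**
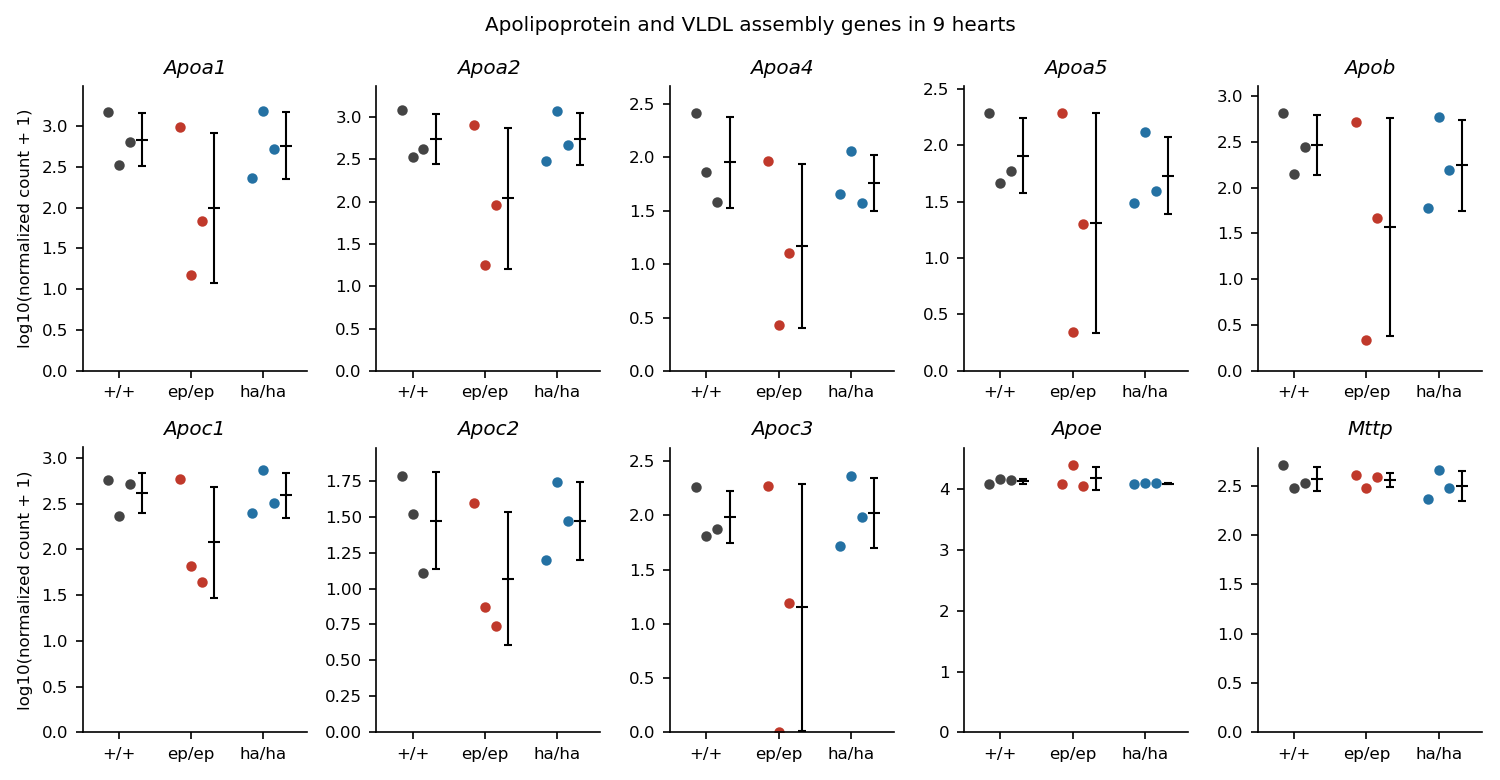
Log10(normalised count + 1) of the 10 genes in the hearts of 9 mice, 1 point per mouse, with the mean and SD of the log values beside each genotype (n = 3). Mrps12ep/ep mouse 2 or mouse 3 is lowest in every panel except that of Mttp, where Mrps12ha/ha mouse 1 is lowest. The genotypes overlap in all panels, and Apoe and Mttp stay within 2.25-fold and 2.22-fold ranges.

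Between genotypes in the heart, no member passed an adjusted p of 0.05 with limma (lowest adjusted p = 0.3125), none at an unadjusted p under 0.05, and none separated the genotypes without overlap. Of all 16057 genes tested, 0% passed for Mrps12ep/ep against Mrps12+/+, 0.0311% for Mrps12ha/ha against Mrps12+/+ and 0.0249% for Mrps12ha/ha against Mrps12ep/ep, with 1.69%, 19.7% and 17.9% at an unadjusted p under 0.05 and 8.03%, 21.2% and 16.6% without overlap. limma-voom on the recovered reads called 0 members too, with 6, 0 and 1 members at an unadjusted p under 0.05 beside 3.10%, 24.1% and 23.0% of all genes in that fit. With array weights there were 7, 0 and 5 such members beside 14.2%, 45.9% and 48.8% of all genes. For Mrps12ep/ep against Mrps12+/+ the median log2 fold change of the 10 genes was -2.16 beside -0.01 over all genes. Of the 10 genes 9 were negative, whereas 47.7% of all genes had a positive value. The 8 hepatocyte markers had a median of -2.24, with 8 of 8 lower. Single values were -2.77 for Apoa1 (SE 1.33) and -2.97 for Apob (SE 1.67). Without Mrps12ep/ep mouse 2 those 2 values were -1.40 and -0.93, and that of Mttp was 0.09 in place of -0.04 and that of Apoe -0.21 in place of 0.16. For Mrps12ha/ha against Mrps12+/+ the median of the 10 genes was -0.19 beside -0.02, and that of the hepatocyte markers -0.52 (7 of 8 lower). For Mrps12ha/ha against Mrps12ep/ep the median of the 10 genes was 1.84 beside -0.02, and that of the hepatocyte markers 1.88 (6 of 8 higher). In this last comparison Apoc3 had a log2 fold change of 2.88 (SE 1.52, adjusted p = 0.3279 from limma), which was 0.96 without Mrps12ep/ep mouse 2, and Apoc1 had 1.70 (SE 0.87, adjusted p = 0.3155). With array weights, which give less weight to mice far from their group, Apoc1 reached 2.37 (adjusted p = 0.03503), in a fit that called 6314 genes in all. In the 5 pathway lists no gene passed the adjusted threshold in the heart. The counts at an unadjusted p under 0.05 for Mrps12ha/ha against Mrps12+/+ are to be read against the 19.7% of all genes. The VLDL assembly and export genes counted 0 higher and 5 lower of 25 tested (median log2 fold change -0.29), and the lipases and their regulators 3 and 0 of 7 (median 0.49). Other apolipoproteins counted 0 and 2 of 15 (median -0.345), receptors 1 and 2 of 13 (0.02) and transcription factors 2 and 1 of 21 (-0.07). In the same comparison the marker medians were -2.93 for atrial genes (4 of 4 lower), -2.68 for mesothelial genes (3 of 3 lower), -3.98 for adipocyte genes (4 of 4 lower), 1.93 for erythroid genes (3 of 3 higher) and 0.505 for endothelial genes (4 of 4 higher), and their part in the list values was not tested.

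The genotype differences of the 2 tissues were then set against each other, since the tissues came from tables normalised apart and only the differences can be compared. Apoc1 gave the lowest p: for Mrps12ep/ep against Mrps12+/+ its log2 difference was 0.68 in the liver and -1.78 in the heart, 2.46 apart (exact permutation p = 0.08, two-sided, over 400 joint splits with a smallest possible p of 0.005). That was the lowest of 30 such tests, the lowest adjusted p was 0.6429, and 0 of 30 had an unadjusted p under 0.05. Genotype labels were permuted in each tissue separately, which treats hearts and livers as unpaired. The sample labels do not say whether a heart and a liver with the same number came from the same mouse.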

How the data were processed

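The deposited values are DESeq2-normalised counts per gene, which the authors made separately for heart and liver. Reads were trimmed with Trim Galore 0.4.1 and cutadapt 1.18, checked with FastQC 0.11.8 and quantified with Salmon 1.1.0 on GENCODE transcripts of GRCm38, with correction for sequence and GC bias, then summed to genes and normalised without the mitochondrial transcripts. Further deposited files hold the authors' own DESeq2 comparisons (fold changes and p-values), and these were not used. Each sample column was taken as one mouse.

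Low values were whole multiples of what 1 read is worth, so reads on genes were recovered from the deposited normalised counts. All low values (100%) lay within a tolerance of 0.05 normalised counts plus a share of 0.02 of what 1 read is worth. The recovered reads gave the depth, reads scaled to the library total (RPM), and RPKM for one transcript per gene. The limit given for a count of 0 covers counting error only.

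Genotypes were compared with limma 3.58.1 in R 4.3.3 (linear model with all 3 genotypes, empirical Bayes with an intensity trend) on log2(normalised count + 1), so fold changes of low genes are understated. Genes with a mean of at least 10 normalised counts over the 9 mice were tested, 15314 in liver and 16057 in heart, with Benjamini-Hochberg adjustment over all of them and a threshold of 0.05. All 10 genes passed this filter in both tissues. Exact two-sided permutation tests used all 20 splits of 3 against 3, or 400 joint splits for liver minus heart. The procedure was tested on simulated data. Values were handled with Python 3.11.15, pandas 2.3.3, numpy 2.4.6 and scipy 1.17.1.

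The members and gene lists were chosen with earlier results of these data known. Other genes were named if among the 2 largest liver changes of a pathway list in a comparison, or among the 5 nearest in profile to the most variable member of a tissue. One gene of the receptor list that this rule names is not reported here. Likeness was the root mean square difference of log2 values centred over 9 mice. The labels' replicate numbers are not said to mark litters or batches, and the mice were not treated as paired. Sequences came from a RefSeq promoter table of GRCm38.p6.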

Additional observations from a re-analysis of the deposited data

How the results depend on the processing

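Each log2 fold change was recomputed with pseudocounts of 0.1 and 8, with no filter on low values or a mean of at least 50, with quantile normalisation, with only the compared genotypes, with array weights, with the replicate number as a block and leaving out each mouse in turn. limma-voom on the recovered reads and a fit without the intensity trend were added after seeing the data. The planned edgeR and DESeq2 fits were not run, and limma-voom was the only fit on reads. The count of members called was 0 in all comparisons and settings, with 1 exception, array weights for Mrps12ha/ha against Mrps12ep/ep in heart (1 member, Apoc1, 2.37). Of the recomputed log2 fold changes, 1082 kept their sign and side of the threshold, 54 changed sign and 1 passed the threshold. Apoc1 for Mrps12ep/ep against Mrps12+/+ in liver stayed between 0.53 and 0.79 (adjusted p from 0.1871 to 0.7442) and Apoc3 for Mrps12ha/ha against Mrps12+/+ between 0.35 and 0.695 (0.1763 to 0.5846). With the replicate block 0 members were called in any comparison (Apoc1 0.68, adjusted p = 0.3746), while the count over all genes was 9, 7 and 6 in liver and 0, 3 and 4 in heart, against 1, 1 and 1 and 0, 5 and 4 without it. Deviations of same-numbered mice correlated at -0.231 to 0.578, and not every mouse correlated best with its own number. For Mrps12ep/ep against Mrps12+/+ in heart, mouse 1 (0.578) and mouse 2 (0.409) did, whereas mouse 3 (-0.0697) did not. The best correlations with another number there were -0.285, 0.345 and 0.121. These values do not settle whether the numbers pair the mice. The cause of the changes of sign was not tested.

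In liver, for Mrps12ep/ep against Mrps12+/+, Apoa2 was -0.11 with array weights, and Apoa5 -0.06 with quantile normalisation and -0.045 in limma-voom. For Mrps12ha/ha against Mrps12+/+, limma-voom gave -0.015 for Apoa1 and -0.001 for Apoa4, and quantile normalisation 0.067 for Apob and -0.12 for Apoe. For Mrps12ha/ha against Mrps12ep/ep, quantile normalisation gave -0.058 for Apoa2. In heart, array weights gave -0.21 for Apoe and 0.15 for Mttp (Mrps12ep/ep against Mrps12+/+) and 0.056 for Apoe (Mrps12ha/ha against Mrps12ep/ep), and Apoc2 for Mrps12ha/ha against Mrps12+/+ was 0.001 with a pseudocount of 0.1 and 0.008 in limma-voom.

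Leaving out 1 mouse changed signs within these ranges. In liver, Mrps12ep/ep against Mrps12+/+ ran from -0.11 to 0.25 for Apoa2, -1.55 to 0.038 for Apoa4, -0.16 to 0.19 for Apoa5, -0.16 to 0.014 for Apob and -0.28 to 0.012 for Mttp. Mrps12ha/ha against Mrps12+/+ ran from -0.78 to 0.81 for Apoa4, -0.042 to 0.30 for Apoa5 and -0.12 to 0.048 for Apob. Mrps12ha/ha against Mrps12ep/ep ran from -0.006 to 0.091 for Apob, -0.15 to 0.022 for Apoc2 and -0.042 to 0.285 for Apoc3. In heart, Mrps12ep/ep against Mrps12+/+ ran from -0.21 to 0.38 for Apoe and -0.20 to 0.18 for Mttp. Mrps12ha/ha against Mrps12+/+ ran from -0.97 to 0.40 for Apoa1, -0.57 to 0.55 for Apoa2, -1.25 to 0.14 for Apoa4, -1.225 to 0.04 for Apoa5, -1.61 to 0.03 for Apob, -0.53 to 0.24 for Apoc1, -0.60 to 0.51 for Apoc2 and -0.43 to 0.63 for Apoc3. Mrps12ha/ha against Mrps12ep/ep ran from -0.21 to 3.02 for Apoa5, -0.505 to 0.079 for Apoe and -0.47 to 0.03 for Mttp. With 3 mice per genotype, SEs were 0.14 to 0.675 in liver and 0.265 to 1.67 in heart. A difference over 3 times its SE (Apoc1 in liver, 0.68 with an SE of 0.20) did not pass the adjusted threshold.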
